A study of Mus musculus with 3 samples.

Results

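CELF1 (also called CUGBP1) is an RNA-binding protein whose core recognition element is the triplet UGU, and the regions described here are the CLIP clusters that lack it. Rows of 3 deposited cluster lists were chosen when the mm9 sequence between the start and the end of the cluster, read on the strand of the cluster, held no UGU. This gave 1825 of 72222 clusters, in 1392 of 8037 genes. In CLIP, ultraviolet light links a protein covalently to its RNA, the complex is immunoprecipitated and the RNA fragments are sequenced, and clusters are where reads piled up beyond what a background model predicted from how much and how long the transcript was. The libraries came from heart ventricle and from muscle of 16-week-old C57/BL6 mice and from C2C12 myoblasts, a cultured mouse line of muscle precursor cells, all crosslinked at 254 nm and precipitated with antibody clone 3B1 against endogenous CELF1. Each source gave 1 library, so every test below compares these libraries or the clusters in them, not conditions, and every interval and p-value covers counting error only. Clusters of the same gene are not independent of each other, and the lists hold no read numbers, so the reads behind a cluster are unknown.

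CELF1 acts in the nucleus, where it binds introns near regulated exons and changes their splicing, and in the cytoplasm, where it binds 3′ UTRs of GU-rich mRNAs and promotes their decay. Its RNA recognition motifs contact UGU, and repeats of that triplet bind more strongly than a single copy. In striated muscle CELF1 is high during development and declines after birth, and its excess in myotonic dystrophy is linked to fetal splicing patterns.

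The sequences that follow show what such clusters looked like. All are mm9, written 5′ to 3′ on the strand of the gene. The first set is shown for what lay next to them: these were 5 myoblast clusters without UGU that overlapped in heart and in muscle only clusters with UGU. Each line is the union of the 3 overlapping clusters, with UGU in capitals. They were chosen after the values were seen, as all those among 38 such clusters that met a single cluster in each adult library and lay in an intron or coding exon with no UTR letter.
Clasp1 intron, chr1:120498371-120498484, plus strand: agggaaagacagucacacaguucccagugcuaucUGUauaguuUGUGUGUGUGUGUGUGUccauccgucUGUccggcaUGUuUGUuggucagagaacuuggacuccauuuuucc
Vmp1 intron, chr11:86417892-86417976, minus strand: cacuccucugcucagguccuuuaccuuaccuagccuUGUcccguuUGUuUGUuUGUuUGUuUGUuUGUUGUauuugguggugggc
Naa15 intron, chr3:51272355-51272437, plus strand: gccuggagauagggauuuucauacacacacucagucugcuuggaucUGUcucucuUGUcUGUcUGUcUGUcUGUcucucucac
Psap coding exon, chr10:59763286-59763365, plus strand: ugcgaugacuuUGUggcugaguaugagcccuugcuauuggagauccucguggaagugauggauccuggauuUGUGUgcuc
Tom1l2 intron, chr11:60147335-60147431, minus strand: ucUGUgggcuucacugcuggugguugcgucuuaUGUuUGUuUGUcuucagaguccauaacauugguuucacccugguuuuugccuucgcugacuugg
In Clasp1, which encodes a microtubule plus-end protein, the myoblast cluster was the first 35 letters and stopped 2 nt short of a completed UGU, after which the union held 12 copies, all inside the heart cluster. In Vmp1 the myoblast cluster was the first 37 letters, again 2 nt short of the first of 8 copies, and in Naa15, a subunit of an N-terminal acetyltransferase, the first 35 letters, 14 nt short of the first of 6. In Psap, the precursor of the lysosomal saposins, the cluster was the 37 letters after the first 34, and 3 added nt completed a UGU. In Tom1l2 the order was the other way round: the myoblast cluster was the last 37 letters and the 4 copies lay upstream, the nearest 19 nt away. Over all 38 myoblast clusters of this kind, the adult clusters reached farther past the downstream end in 26 and past the upstream end in 12.

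Some of the widest clusters without UGU show how far a cluster could run with no copy of the triplet. The coding lines were the widest with a midpoint in a coding exon and can run on into the intron.
Klhl7 coding exon, heart, chr5:23633497-23633609, plus strand: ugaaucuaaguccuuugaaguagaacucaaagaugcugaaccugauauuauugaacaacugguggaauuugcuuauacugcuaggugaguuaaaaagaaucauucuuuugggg
Fbxo32 intron, muscle, chr15:58015928-58016023, minus strand: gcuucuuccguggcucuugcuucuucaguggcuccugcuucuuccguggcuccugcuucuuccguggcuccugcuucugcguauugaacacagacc
Ndufc2 coding exon, muscle, chr7:104548824-104548892, plus strand: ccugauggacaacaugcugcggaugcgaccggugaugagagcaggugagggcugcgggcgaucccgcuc
Sorcs2 intron, myoblast, chr5:36642953-36643018, minus strand: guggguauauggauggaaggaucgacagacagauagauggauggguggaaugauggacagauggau
Hsp90ab1 coding exon, myoblast, chr17:45705346-45705407, minus strand: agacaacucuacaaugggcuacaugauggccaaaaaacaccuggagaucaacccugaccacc
The Fbxo32 cluster, in the gene of the muscle ubiquitin ligase atrogin-1, was a repeat of pyrimidine-rich units with 35 U and 33 C in 96 letters. In 3′ UTRs the widest cluster without UGU lay in the same place in heart and in muscle, in Oxct1, which encodes the mitochondrial enzyme that starts ketone body oxidation. It was 122 nt wide in heart and 116 nt wide in muscle. The middle 30 nt of the heart cluster are shown, followed by the middle 30 nt of the widest in myoblasts, a 65 nt cluster in Actn1, which encodes a non-muscle alpha-actinin.
Oxct1 3′ UTR, chr15:4104880-4104909, plus strand: gugaaacguaucgucuuucuggcacuaauu
Actn1 3′ UTR, chr12:81269085-81269114, minus strand: uucugcaaaaaaggauaaaaaaaaaguuac

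Clusters without UGU were rare in adult tissue and commoner in myoblasts. They made up 720 of 42263 heart clusters (1.70%, exact Clopper-Pearson 95% interval 1.58 to 1.83), 407 of 24844 muscle clusters (1.64%, 1.48 to 1.80) and 698 of 5115 myoblast clusters (13.6%, 12.7 to 14.6). The odds ratio was 9.12 (95% interval 8.18 to 10.2) for myoblast against heart and 9.49 (8.36 to 10.8) for myoblast against muscle, with adjusted p of 1.27e-300 and 2.11e-269 (two-sided Fisher's exact test, Benjamini-Hochberg over 3). Heart and muscle did not differ beyond counting error (odds ratio 1.04, 0.92 to 1.18, Fisher's exact test, adjusted p = 0.534). That call did not hold under every processing choice. With 1 cluster per gene the heart share was above the muscle share (odds ratio 1.61, Fisher's exact test, adjusted p = 0.000575), and with clusters up to 10 nt apart merged it was 1.15 (adjusted p = 0.0426).

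A short stretch lacks any triplet more often than a long one, and myoblast clusters were shorter, so shares were compared within widths. Median widths of clusters without UGU were 45 nt in heart, 43 nt in muscle and 35 nt in myoblasts, and 35 nt was the narrowest width in any list. Among clusters under 40 nt, 18.4% of myoblast, 4.17% of heart and 3.85% of muscle clusters lacked UGU. Between 40 and 49 nt the shares were 9.59%, 2.24% and 2.19%. From 50 to 59 nt they were 4.52%, 1.63% and 1.18%. In each of these bins the myoblast share was above both adult shares, and the largest adjusted p was 3.15e-05 (Fisher's exact test, Benjamini-Hochberg over the width bins). At 60 nt and more only 5 of 485 myoblast clusters lacked UGU (1.03%), against 0.652% in heart and 0.667% in muscle. No difference was detectable there, and the interval of the odds ratio for myoblast against heart, 0.645 to 3.90, still allows one. Restricted to clusters exactly 35 nt wide, a choice made after the values were seen, 370 of 1675 myoblast, 59 of 1051 heart and 48 of 860 muscle clusters lacked UGU, with odds ratios of 4.77 and 4.80 for myoblast against heart and muscle. Of the comparisons of heart with muscle by width, the one between 50 and 59 nt was called (odds ratio 1.38, Fisher's exact test, adjusted p = 0.0473), and whether it differed from those at other widths was not tested.

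Each cluster was also set beside all windows of its own width in the same part of the same gene, enumerated completely and with no test. Of such windows 29.3% lacked UGU for heart, 28.7% for muscle and 39.5% for myoblasts. Clusters without UGU were thus 16.9-fold rarer than windows in heart, 17.5-fold rarer in muscle and 2.88-fold rarer in myoblasts. Windows under 40 nt were alike among libraries, with 45.0%, 44.0% and 44.9% lacking UGU, so that in this bin the window share hardly differed where the cluster share did. The plot of shares by width sets both side by side.

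**Figure D1:**
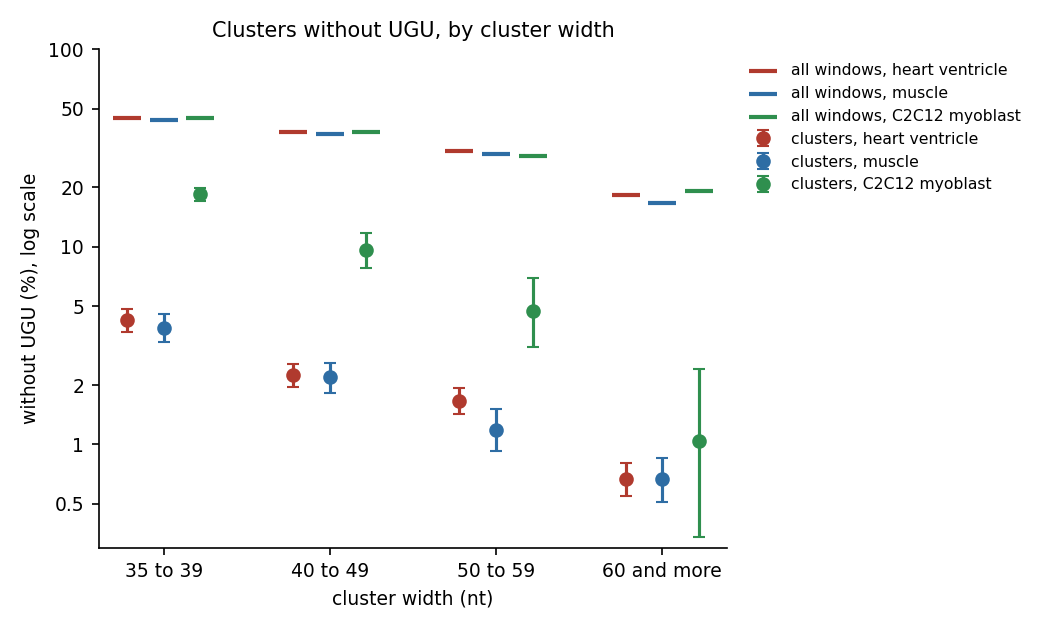
Share of clusters without UGU (y axis, percent, log scale) by cluster width in nt (x axis) in the 3 libraries. Points are clusters with exact 95% intervals, and bars are all windows of the same width in the same part of the same gene; the myoblast points lie above both adult libraries below 60 nt, and all points lie below the window bars.

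The gene part in which a cluster lay went with the share lacking UGU. In heart 214 of 24745 intron clusters (0.865%), 348 of 13954 3′ UTR clusters (2.49%), 129 of 2415 coding exon clusters (5.34%) and 24 of 231 5′ UTR clusters (10.4%) lacked UGU. Muscle had the same order, with 0.690%, 2.19%, 4.16% and 6.11%. In myoblasts the order of introns and 3′ UTRs was the other way round: 427 of 3088 intron clusters (13.8%), 192 of 1738 3′ UTR clusters (11.0%), 64 of 193 coding exon clusters (33.2%) and 8 of 18 5′ UTR clusters (44.4%, interval 21.5 to 69.2) lacked it. Introns held 61.2% of myoblast clusters without UGU and 60.4% of all myoblast clusters, whereas 3′ UTRs held 48.3% of those without UGU against 33.0% of all in heart, and 67.1% against 50.1% in muscle.

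The odds of lacking UGU in a 3′ UTR against an intron were 2.93 in heart (adjusted p = 2.69e-35) and 3.23 in muscle (adjusted p = 8.45e-22) but 0.77 in myoblasts (adjusted p = 0.00543, Fisher's exact test, Benjamini-Hochberg over 9). The myoblast value did not hold within clusters of 30 to 49 nt, where it was 0.97, and rose to 1.03 at exactly 35 nt. It was also not called with 1 cluster per gene (0.92), with UGU looked for 10 nt beyond the edges (0.79) or with GU as the motif (0.75). Coding exon clusters lacked UGU more often than intron clusters in every library, with odds ratios of 6.47, 6.26 and 3.09, and more often than 3′ UTR clusters, with 2.21, 1.94 and 3.99 in heart, muscle and myoblasts. The excess over 3′ UTRs was not called in muscle with 1 cluster per gene, nor in heart and muscle at exactly 35 nt, where the odds ratios were 1.04 in heart and 1.98 in muscle.

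Windows showed another order than clusters. In heart 22.2% of windows in 3′ UTRs lacked UGU, 32.2% of those in introns and 39.2% of those in coding exons, so the intron clusters without UGU were 37.2-fold rarer than windows, against 8.92-fold in 3′ UTRs and 7.34-fold in coding exons. In muscle the corresponding ratios were 49.6, 10.4 and 9.94. In myoblasts they were close to each other, 3.06 in introns and 2.96 in 3′ UTRs, with 1.63 in coding exons. The plot of shares by gene part shows the wide gap of adult introns.

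**Figure D2:**
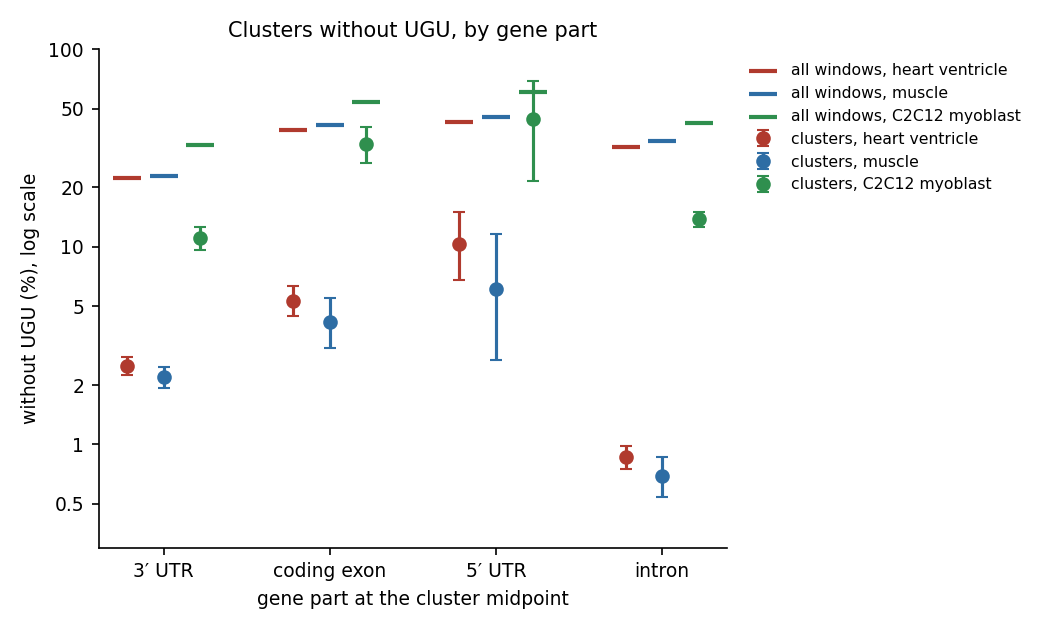
Share of clusters without UGU (y axis, percent, log scale) by gene part at the cluster midpoint (x axis) in the 3 libraries. Points are clusters with exact 95% intervals and bars are all windows of the same width in the same part of the same gene; adult introns have the lowest shares, 0.865% and 0.690%, under windows at 32.2% and 34.2%.

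UGU was usually near. The triplet came within reach when 13 nt were added at an edge in heart, 12 nt in muscle and 9 nt in myoblasts (medians), and within 50 nt in 86.1%, 92.1% and 93.1% of clusters. Only 26 heart, 7 muscle and 11 myoblast clusters had none within 100 nt. Windows without UGU were near it too: 84.4%, 87.3% and 86.5% of them had one within 50 nt. Within 10 nt the share was 42.8% against 32.9% of windows in heart, 46.3% against 35.5% in muscle and 56.6% against 35.1% in myoblasts.

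In myoblasts the neighbouring UGU lay more often downstream. Within 30 nt, 71.9% of the myoblast clusters without UGU had UGU downstream and 51.6% upstream, and among those with it on a single side 236 had it downstream and 94 upstream (adjusted p = 9.33e-15, exact two-sided binomial test, chosen after the values were seen). Both width classes showed this, with 118 against 49 at exactly 35 nt and 118 against 45 above it. In heart the numbers were 184 downstream and 152 upstream (exact binomial test, adjusted p = 0.136) and in muscle 111 and 97 (adjusted p = 0.367). At the other 3 distances heart clusters had it downstream more often, 157 against 104 within 10 nt, 183 against 143 within 20 nt and 165 against 120 within 50 nt (exact binomial test, adjusted p = 0.00187, 0.0459 and 0.0136). Muscle clusters of all widths together did not pass at any distance, with 95 against 72 within 10 nt (exact binomial test, adjusted p = 0.0884). Those above 35 nt wide passed within 10 nt (86 against 54) and within 50 nt (84 against 59), but not within 20 or 30 nt. The adjusted p were 0.00856 and 0.0444 (exact binomial test). Muscle clusters of exactly 35 nt leaned upstream within 10 nt, 9 against 18, and were not called. The imbalance differed between myoblasts and heart by an odds ratio of 2.07 and between myoblasts and muscle by 2.19 at 30 nt (adjusted p = 2.84e-05 and 4.37e-05, Fisher's exact test), and did not differ detectably between heart and muscle (odds ratio 1.06, adjusted p = 0.791).

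Myoblast clusters that hold UGU leaned the same way, with further copies downstream only in 1221 and upstream only in 812, whereas those of heart (9137 against 10318) and muscle (5580 against 6108) leaned upstream. The balance lay farther downstream in clusters without UGU than in those with it, by odds ratios of 1.67 in myoblasts and 1.37 in heart (Fisher's exact test, adjusted p = 0.000208 and 0.00734), while the 1.25 of muscle was not called (adjusted p = 0.123). Within 10 nt these were 1.83, 1.86 and 1.56, all called. In the first 10 nt downstream of myoblast clusters without UGU there were 6.27 copies per 100 positions, against 2.78 upstream and 2.31 beside windows, and the downstream density fell to 3.29 by 91 to 100 nt. In heart the first 10 nt held 3.55 downstream and 2.64 upstream, and in muscle 3.43 and 2.79.

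**Figure D3:**
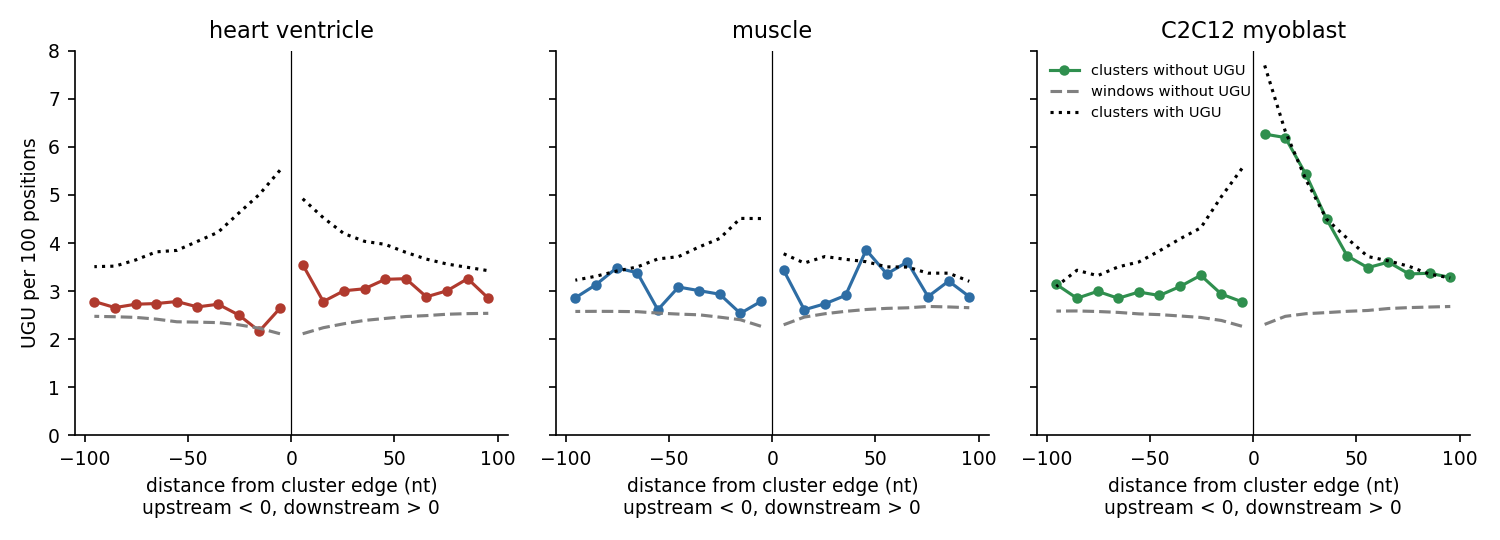
UGU copies per 100 positions (y axis) by distance in nt from the cluster edge (x axis, upstream negative, downstream positive, bins of 10 nt) in the 3 libraries. Coloured points are clusters without UGU, dashed lines windows without UGU in the same part of the same gene, and dotted lines clusters with UGU; in myoblasts the downstream side begins at 6.27 and the upstream side at 2.78.

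In their content of U the clusters were closer to UGU-less windows than to clusters with UGU. These clusters and windows were chosen for lacking UGU and the other clusters for holding it. The nearness is therefore partly built in and is no result about the clusters. U made up 25.7% of letters in heart, 28.4% in muscle and 27.0% in myoblasts, against 24.6%, 25.8% and 26.0% in windows and 38.1%, 39.1% and 40.3% in clusters with UGU. C was the commonest letter in heart clusters without UGU, at 29.2%. The dinucleotide GU was present in 85.7% of heart and 89.1% of muscle clusters, above the 80.3% and 79.6% of windows, and in 73.1% of myoblast clusters, where windows had 72.9%. Among short motifs, GCUU, a site of muscleblind proteins, which oppose CELF1 in splicing, was present in 24.9%, 27.9% and 20.1% of clusters against 19.7%, 19.4% and 15.4% of windows, and clusters with UGU held it about as often, in 25.9%, 26.9% and 19.5%. ACA, the reverse complement of UGU, was present in fewer clusters than windows: 42.1% against 54.1% in heart, 39.6% against 55.4% in muscle and 34.4% against 47.6% in myoblasts. Clusters with UGU held ACA still less often, in 38.3%, 37.8% and 27.9%, so its scarcity is no trait of those without UGU. The adenine run AAAA was present in 8.25% of heart clusters and 20.9% of windows, in 16.4% and 24.1% in muscle, and in 20.8% and 19.2% in myoblasts. These shares are descriptions with no test, and a motif match is no evidence of a site.

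Runs of a single letter were few. A run of 10 or more was present in 7 heart, 8 muscle and 19 myoblast clusters without UGU (0.972%, 1.97% and 2.72%), against 0.520%, 1.007% and 1.13% of clusters with UGU. Of the 19 in myoblasts, 11 were runs of A. A broader measure of low complexity went the other way. Distinct triplets numbered under 50% of triplet positions in 16.4%, 9.83% and 9.31% of heart, muscle and myoblast clusters without UGU. With UGU it was 40.9%, 36.9% and 28.6%. Neither measure was matched for cluster width.

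Clusters without UGU were met less often in another library. A heart cluster overlapped a muscle cluster by at least 1 bp on the same strand in 16.4% of those without and 31.2% of those with UGU, and a muscle cluster a heart cluster in 34.6% and 53.1%. A myoblast cluster overlapped a heart cluster in 13.3% and 37.1% and a muscle cluster in 8.88% and 27.6%. The odds ratios were 0.43, 0.47, 0.26 and 0.26, with adjusted p of at most 2.24e-13 (Fisher's exact test, Benjamini-Hochberg over 6). Wider clusters meet others more often, and within 30 to 49 nt the heart to muscle difference was 0.78 and no longer called, while the other 3 were. Heart clusters met myoblast clusters in 2.64% and 4.21% (Fisher's exact test, adjusted p = 0.0458), a call lost under 5 alternatives and turned round under 2 of these, and muscle clusters met them in 3.19% and 5.32% (adjusted p = 0.0572).

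The clusters they met mostly held UGU when the cluster came from myoblasts. Of 93 myoblast clusters without UGU that met a heart cluster, 78 (83.9%) met only heart clusters with UGU, and 56 of the 62 that met a muscle cluster (90.3%) met only muscle clusters with UGU. Nearly all adult clusters hold UGU: the 15 of 93 that met a heart cluster without it and the 6 of 62 that met such a muscle cluster stand beside shares of 1.70% and 1.64% over all heart and muscle clusters. Overlapping clusters share sequence, so a cluster that meets one without UGU lacks it more often by construction. The difference from those shares is therefore no result about these clusters. Of 118 heart clusters that met muscle, 63 met a muscle cluster without UGU. No other library held a cluster at 587 of the heart clusters without UGU (81.5%), 264 of those of muscle (64.9%) and 587 of those of myoblasts (84.1%). The same count was not made for clusters with UGU, so these shares are no trait of clusters without it. Of clusters with UGU, 31.2% in heart met muscle, 53.1% in muscle met heart and 37.1% in myoblasts met heart. Another cluster of the same library lay within 50 nt of 26.3% of heart clusters without UGU and 22.02% of those with it (Fisher's exact test, adjusted p = 0.0113), of 34.6% and 24.3% in muscle (adjusted p = 8.95e-06), and of 4.44% and 5.46% in myoblasts (adjusted p = 0.318). With 1 cluster per gene neither adult difference was called.

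**Figure D4:**
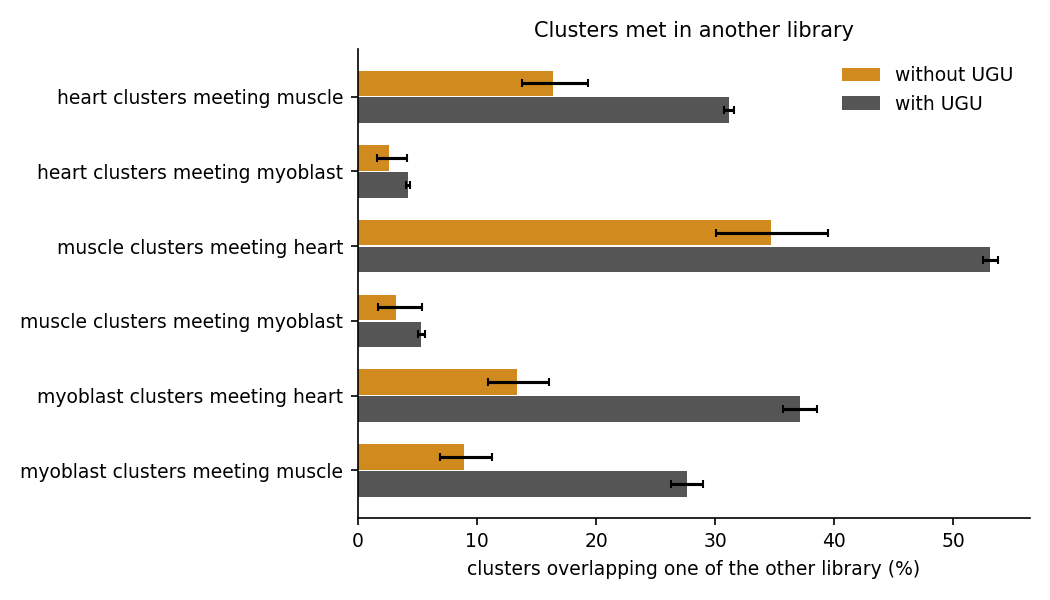
Share of clusters (x axis, percent) that overlap a cluster of another library by at least 1 bp on the same strand, for the 6 directions (y axis). Orange bars are clusters without UGU and grey bars clusters with UGU, with exact 95% intervals; the orange bar is shorter in each direction.

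A stretch was covered by a cluster without UGU in all 3 libraries at only 3 places. They are printed because they are the places where absence of the triplet recurred.
Tyw1 intron, chr5:130734594-130734631, plus strand: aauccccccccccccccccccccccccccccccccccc
Cdh13 intron, chr8:121371124-121371159, plus strand: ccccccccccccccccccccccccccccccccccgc
Fth1 5′ UTR, middle 30 of 35 nt, chr19:10057291-10057320, plus strand: ccugagcccuuugcaacuucgucguuccgc
The stretches in Tyw1, a tRNA-modifying enzyme, and Cdh13, a cadherin without a transmembrane part, each had 35 C. What part such low-complexity sequence plays in the mapping of reads was not tested. Fth1 encodes the ferritin heavy chain, whose 5′ UTR is known for an iron-responsive element, and its nearest UGU needed 109 nt beyond the edge of the myoblast cluster.

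Clusters without UGU were more often at a splice edge. An annotated boundary between exon and intron lay inside the cluster or within 3 nt of its end in 13.5% of heart, 7.86% of muscle and 4.87% of myoblast clusters without UGU, against 3.11%, 2.36% and 1.99% of those with it (odds ratios 4.85, 3.53 and 2.52, adjusted p = 3.24e-31, 3.67e-08 and 7.46e-05, Fisher's exact test, Benjamini-Hochberg over 9). By gene part, a split chosen after the values were seen, the gap was widest in introns. Windows at splice edges were not counted, so the shares at an edge have no baseline of windows without UGU beside them. Of heart clusters with a midpoint in an intron, 40 of 214 without UGU (18.7%) and 373 of 24531 with it (1.52%) were at an edge, an odds ratio of 14.9 (Fisher's exact test, adjusted p = 3.23e-29). In muscle it was 16 of 74 (21.6%) and 158 of 10658 (1.48%), an odds ratio of 18.3 (Fisher's exact test, adjusted p = 1.52e-13), and in myoblasts 13 of 427 (3.04%) and 40 of 2661 (1.503%), a difference that was not called (adjusted p = 0.0926). Of coding exon clusters, 33.3% without and 32.9% with UGU were at an edge in heart, 29.8% and 29.02% in muscle and 26.6% and 24.8% in myoblasts, with odds ratios between 1.02 and 1.10 that were not called. In 3′ UTRs it was 9 of 348 (2.59%) and 125 of 13606 (0.919%) in heart, an odds ratio of 2.86 that missed the threshold (Fisher's exact test, adjusted p = 0.0577), and odds ratios of 1.014 and 1.74 in muscle and myoblasts were not called either. Of the 40 heart intron clusters without UGU, 24 touched only the end of an exon, 15 only the start, and 1 both. Of the 373 with UGU the numbers were 190, 180 and 3.

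The edge passed through the cluster in most cases, with or without UGU. Without UGU, 86 of 97 in heart, 32 of 32 in muscle and 27 of 34 in myoblasts had it inside. With UGU it was 1050 of 1293, 471 of 576 and 78 of 88. Such clusters therefore ran across exon and intron in the genomic sequence. As examples, the first 4 heart intron clusters without UGU that spanned the edge of a coding exon are shown, in genes ordered by their number of clusters. Capitals mark exon letters.
Ttn, chr2:76685119-76685181, minus strand: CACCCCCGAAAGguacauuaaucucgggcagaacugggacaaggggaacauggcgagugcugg
Pcnx, chr12:83076312-83076367, plus strand: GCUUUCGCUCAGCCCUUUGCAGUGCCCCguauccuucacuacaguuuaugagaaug
Msrb3, chr10:120262182-120262221, minus strand: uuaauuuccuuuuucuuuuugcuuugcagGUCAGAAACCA
Klhl24, chr16:20120354-20120398, plus strand: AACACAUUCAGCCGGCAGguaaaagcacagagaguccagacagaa
The Ttn cluster had 12 exon and 51 intron letters at an exon end, in the gene of titin, the spring of the sarcomere. The Msrb3 cluster, in the gene of a methionine sulfoxide reductase, had 29 intron letters that included the pyrimidine tract, followed by 11 letters of the exon.

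**Figure D5:**
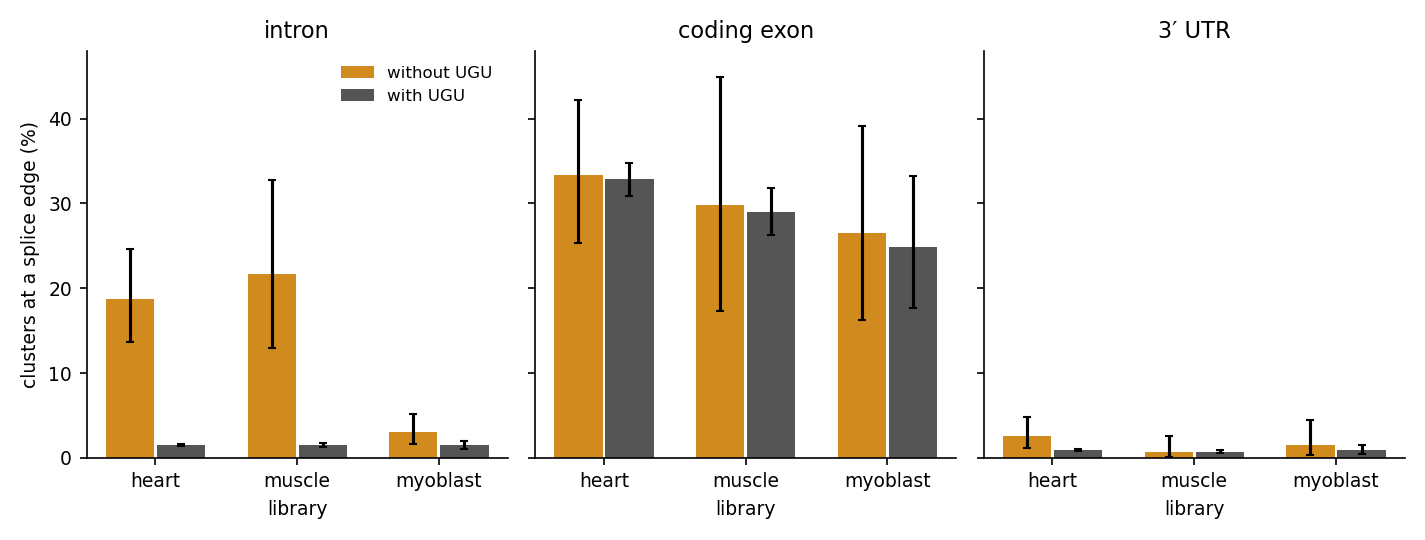
Share of clusters (y axis, percent) at an annotated splice edge by library (x axis) and gene part (panels). Orange bars are clusters without UGU and grey bars clusters with UGU, with exact 95% intervals; the bars differ in introns of heart (18.7% and 1.52%) and muscle (21.6% and 1.48%) and are nearly level in coding exons.

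Contacts with other annotated RNAs were few. A small RNA on the same strand was overlapped by 3 of 720 heart and 4 of 698 myoblast clusters without UGU, against 21 of 41543 and 4 of 4417 with it (odds ratios 8.27 and 6.36, Fisher's exact test, adjusted p = 0.0172 and 0.0275). The myoblast call was lost with clusters up to 10 nt apart merged (4.77, Fisher's exact test, adjusted p = 0.0866), within introns (4.17, adjusted p = 0.215) and within 3′ UTRs, and in heart 3′ UTRs there was none among 348 clusters without UGU. In muscle it was 0 of 407, with an exact upper limit of 0.902% (3 counts of the total would be 0.737%), and 7 of 24437. The 7 contacts were the snoRNAs snoU90 in Kpna4, Snora7a in Rpl32, Snord23 in Nop53, Snord45c in Rabggtb, snoU97 in Eif4g2 and Snord111 in Sf3b3, and a U6 snRNA in Rnf225. A gene on the opposite strand was overlapped by 5.83% and 4.17% in heart (Fisher's exact test, adjusted p = 0.0466, a call lost under 7 alternatives and turned round under 1 of these) and by shares that did not differ beyond counting error in muscle (3.69% and 4.80%) and in myoblasts (3.58% and 3.92%).

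Across genes the clusters were scattered. Of 635 heart genes with a cluster without UGU, 571 had a single one, as did 343 of 370 muscle genes and 536 of 607 myoblast genes. These were 9.26% of heart, 6.93% of muscle and 22.04% of myoblast genes with any cluster. In myoblasts 244 of the 607 genes had no cluster with UGU, 232 of them with a single cluster in all, whereas 45 of 635 in heart and 26 of 370 in muscle had none. In all 3 libraries 17 genes had a cluster without UGU: Cdh13, Celf1, Celf2, Dnajc5, Dpysl2, Dync1li2, Foxo1, Fth1, Msi2, Pard3, Pcyt1a, R3hdm2, Rbfox2, Samd4, Sh2b1, Tyw1 and Ywhae. The number of genes with any cluster in all 3 libraries was not counted, so whether 17 is many is not known. A gene with more clusters has more occasions to recur, and their heart clusters numbered from 2 in Fth1 and Tyw1 to 111 in Cdh13. Celf1, the gene of the precipitated protein, had 1 of 21 in heart, 1 of 22 in muscle and 1 of 5 in myoblasts, and its heart and muscle clusters without UGU shared 61 nt of the 3′ UTR. Celf2, its closest paralog, had 1 of 93, 2 of 33 and 1 of 17.

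In heart the genes with the most also had many clusters in all. Ryr2, the cardiac calcium release channel (Entrez 20191, chr13:11645370-12199212) had 5 of 252, 4 of them intronic and 1 coding. Cacna1c, the pore subunit of the L-type calcium channel, had 4 of 223, all intronic, Ttn 4 of 184 and Zbtb16, a zinc finger repressor, 4 of 92. Their shares ran from 1.79% in Cacna1c to 4.35% in Zbtb16, beside 1.70% over the library. Smaller genes had 3 each: the kinase gene Hipk2 (3 of 13, all coding), Pdha1, the E1 alpha subunit of pyruvate dehydrogenase (3 of 13), Tpm1, tropomyosin (3 of 15), and Nipsnap2 (3 of 17). Among genes with at least 5 clusters the largest shares were those of Myl3, the ventricular essential light chain (2 of 5), of Fblim1, Ifngr2 and Rbm26 (2 of 8 each) and of Hipk2 and Pdha1, which were level.

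In muscle Msi2, which encodes the RNA-binding protein musashi-2, had 5 of 42, 4 of them in the 3′ UTR, and 3 of 69 in heart. Rbfox1, a splicing regulator, had 5 of 101 in muscle and 0 of 51 in heart. Atp2a2, the calcium pump SERCA2, had 4 of 15 in muscle and 2 of 59 in heart. Pfkm, muscle phosphofructokinase, had 3 of 18, and the transcription factor gene Sox6 3 of 84. Dpysl2 (2 of 6), Igfbp5 and Mdm2 (2 of 8 each) and Rnf11 (2 of 9) completed the named genes.

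In myoblasts the leading genes had intron clusters. Hmga2 (Entrez 15364, chr10:119798331-119913525), a chromatin protein of proliferating and embryonic cells, had 6 of 26, all intronic, and 1 cluster in heart and 0 in muscle. The polarity gene Pard3 had 4 of 10 and Efl1, a GTPase of ribosome maturation, 4 of 12. Ano6 and Snd1 had 3 of 4 each, and Anln, which encodes the cytokinesis protein anillin, and Galnt18 had 3 of 5 each. Actn1 had 3 of 7, all in the 3′ UTR, and 0 of 9 in heart, and Aff1 had 2 of 5.

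Gene lists are given as counts beside the library shares of 1.70%, 1.64% and 13.6%, with no test. Nuclear-encoded oxidative phosphorylation genes had 8 of 151 clusters without UGU in heart (5.30%, 2.31 to 10.2), in 8 genes that included Atp5b, Atp5g2, Cox4i1 and Cox5a, 4 of 81 in muscle (4.94%) and 1 of 9 in myoblasts. Translation factors had 4 of 81 (4.94%), 3 of 95 (3.16%) and 5 of 24 (20.8%), with Eef1a2, Eif1 and Eif4b listed once in heart and once in muscle and Eif4g2 having 2 of 5 in myoblasts. Cytosolic ribosomal protein genes had 1 of 14, 2 of 12 and 0 of 14, the last with an exact upper limit of 23.2% (3 counts of the total would be 21.4%). Sarcomere genes had 14 of 581 in heart and 12 of 498 in muscle, both 2.41%, led by Ttn, with Tpm1 3 of 15 in heart, Ldb3 2 of 29 in heart and Myl1 2 of 10 in muscle. Genes of splicing and decay proteins had 12 of 807 (1.49%), 17 of 653 (2.60%) and 19 of 129 (14.7%), with Msi2, Rbfox1, Rbfox2 and Celf2 leading.

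Cytoskeletal genes had 9 of 532, 5 of 384 and 15 of 94 (1.69%, 1.30% and 16.0%), with Actn1, Dst, Cfl1 and Dmd leading. Matrix genes had 2 of 121, 1 of 44 and 4 of 42, with Bgn 2 of 5 in myoblasts. The 24 listed snoRNA host genes had 2 of 7 in myoblasts, in Dkc1 and Rabggtb, and 0 of 27 and 0 of 20 in heart and muscle, with exact upper limits of 12.8% and 16.8% (11.1% and 15% as 3 counts of the total). That list leaves out Kpna4, Rpl32, Nop53, Eif4g2 and Sf3b3, whose clusters without UGU overlapped snoRNAs as named above. Histone genes had none among 13, 11 and 1 clusters, and no cluster was listed in any of 24 long noncoding RNA genes. Markers of cells other than muscle were also counted. Endothelial genes had 1 of 87 in heart (Pecam1) and 1 of 25 in muscle (Flt1), and macrophage genes 0 of 8 in heart and 0 of 3 in muscle. Fibroblast genes had 2 of 10 in heart (Pdgfrb and Tcf21). In muscle and in myoblasts they had 0 of 4 each, with an exact upper limit of 60.2%. Intervals of these shares are wide, and most hold the share of their library. Those of oxidative phosphorylation and fibroblast genes in heart and of ribosomal protein genes in muscle lie above it. The fibroblast and ribosomal protein values rest on 2 of 10 and 2 of 12 clusters. These intervals are not adjusted for the number of lists, and the lists were not matched for gene part or cluster width.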

How the data were processed

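By the labels and the paper's methods, identical reads were collapsed by the authors with a short barcode, adapters were trimmed and reads were mapped to mm9 and splice junctions with Bowtie and TopHat (versions not given in the sources used here), keeping unique matches. The deposited files hold the position, strand and Entrez identifier of each cluster, called per library by a Poisson model of gene expression and length. A deposited column with 1 constant value and no stated meaning was not used.

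Clusters were read as BED intervals (starts counted from 0), and printed positions count from 1. Sequence came from NCBIM37, the assembly of mm9, and gene parts from GENCODE vM1, by cluster midpoint with priority 3′ UTR, coding exon, 5′ UTR, intron. Of 8037 Entrez identifiers, 7980 (99.3%) matched an annotated gene. Only symbols were taken from a RefSeq table, which is of a later assembly. Tests were two-sided Fisher's exact tests with Benjamini-Hochberg adjustment and exact binomial tests. Code was tested on simulated data. Every window of equal width was enumerated for clusters inside an annotated gene part (41345, 24445 and 5037). Genes were named by most clusters without UGU (8 per library), largest share among those of at least 5 clusters (5 per library), stretches common to all libraries, and up to 4 per gene list. Some items that these rules name are not reported here. The members and lists were chosen with earlier results of these data known. Nothing states whether a library pooled animals or cultures. Programs were Python 3.11.15, numpy 2.4.6, scipy 1.17.1, pandas 2.3.3, pysam 0.24.0, samtools 1.23.1 and matplotlib 3.10.9.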

Additional observations from a re-analysis of the deposited data

Results flagged for a closer look

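The gene part contrast differed between myoblasts and the adult tissues by a test of the difference itself, the ratio of odds ratios with its 95% Wald interval. For 3′ UTR against intron, the odds ratio of lacking UGU in myoblasts was 0.264 times that in heart (0.206 to 0.339) and 0.240 times that in muscle (0.175 to 0.329). For coding exon against intron the ratios were 0.478 (0.325 to 0.704) and 0.494 (0.303 to 0.805), and for coding exon against 3′ UTR 1.81 (1.22 to 2.68) and 2.06 (1.30 to 3.27). Between heart and muscle the ratios were 0.91 for 3′ UTR against intron (0.67 to 1.24), 1.14 for coding exon against 3′ UTR (0.78 to 1.66) and 1.03 for coding exon against intron (0.67 to 1.59), each with an interval that holds 1. Cluster widths differ between the libraries. Within clusters of 30 to 49 nt the odds ratios in heart, muscle and myoblasts were 3.84, 4.73 and 0.97 for 3′ UTR against intron, 5.99, 7.85 and 2.97 for coding exon against intron, and 1.56, 1.66 and 3.05 for coding exon against 3′ UTR. At exactly 35 nt, chosen after the values were seen, they were 3.38, 2.26 and 1.03 for 3′ UTR against intron. For coding exon against intron they were 3.53, 4.48 and 2.56, and for coding exon against 3′ UTR 1.04, 1.98 and 2.49. Whether the gaps between myoblasts and the adult tissues depend on width was not tested.

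The downstream lean of UGU within 30 nt also differed between libraries, by 2.07 for myoblast against heart and 2.19 for myoblast against muscle (Fisher's exact test, adjusted p = 2.84e-05 and 4.37e-05). These compare 1 library each.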

How the results depend on the processing

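Of 237 odds ratios recomputed under alternatives, 189 kept their direction and their side of the 0.05 threshold, 32 kept the direction and lost the call, 3 gained it and 13 changed direction. The excess of myoblasts over heart and over muscle kept both under each alternative run. The cause of the changes was not tested, save that narrower selections hold fewer clusters. Values are odds ratios.

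With 1 cluster per gene, heart against muscle was 1.61 (now called), coding exon against 3′ UTR in muscle 1.74, 3′ UTR against intron in myoblasts 0.92, heart clusters meeting myoblasts 1.65, and a neighbour 0.97 in heart and 1.735 in muscle. With clusters merged over gaps of up to 10 nt, heart against muscle was 1.15 (now called), an opposite-strand gene in heart 1.47 and a small RNA in myoblasts 4.77. With UGU also looked for 10 nt beyond each edge, 3′ UTR against intron in myoblasts was 0.79, heart meeting myoblasts 0.57, an opposite-strand gene 1.42 in heart and 1.62 in myoblasts, and a neighbour in myoblasts 1.27. Within 30 to 49 nt, 3′ UTR against intron in myoblasts was 0.97, heart meeting muscle 0.78, heart meeting myoblasts 1.27, muscle meeting myoblasts 1.09, an opposite-strand gene 1.45, 1.03 and 1.06 in heart, muscle and myoblasts, and a neighbour in myoblasts 1.07. With starts and ends counted from 1, heart meeting myoblasts was 0.63 and an opposite-strand gene in heart 1.40. With lack of GU in place of UGU, 3′ UTR against intron was 1.38 in heart, 1.48 in muscle and 0.75 in myoblasts, and in muscle coding exon was 2.30 against 3′ UTR and 3.41 against intron. With at least 50% of both clusters shared, heart meeting myoblasts was 0.74. With a neighbour within 200 nt, myoblasts were at 0.70 (now called).

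Chosen after the values were seen: at exactly 35 nt, coding exon against 3′ UTR was 1.04 in heart and 1.98 in muscle, and 3′ UTR against intron in myoblasts 1.03. In coding exons an opposite-strand gene in heart was 2.05 and a splice edge 1.02, 1.04 and 1.10 in the 3 libraries. In introns an opposite-strand gene was 1.72 in heart and 1.07 in myoblasts, a small RNA in myoblasts 4.17 and a splice edge in myoblasts 2.06. In 3′ UTRs an opposite-strand gene in heart was 0.68, a small RNA 0 in heart and 8.09 in myoblasts, and a splice edge 2.86, 1.014 and 1.74 in the 3 libraries. Leaving out chromosome 15 left all library comparisons on their side of the threshold.

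Leaving out a replicate was not possible with 1 library per group. No paired analysis was possible because the labels give no replicate numbers. Of 186 descriptive values, 1 moved to the other side of the windows, the share of myoblast clusters with GU when windows were taken from the whole gene. The number of reads behind a cluster is unknown, so depth at a cluster is a limit that could not be measured. The myoblast list is the shortest. By the paper's totals of uniquely mapped reads after collapsing, the myoblast library was about as deep as heart and deeper than muscle.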
